A study of Mus musculus with 4 samples.

Results

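Cd74, H2-Aa, H2-Ab1, H2-Eb1 and Ciita, the core genes of major histocompatibility complex (MHC) class II antigen presentation, were followed by symbol through single-nucleus RNA sequencing of mouse hippocampus. They are 5 of the 55403 features counted. The data are 4 libraries in 3 groups: 1 library of wild-type (WT) mice, PS19 replicates 1 and 2, and 1 library named TG_PS19. PS19 mice carry human 1N4R tau with the P301S mutation under the Prnp promoter, in a stock of mixed B6 and C3 origin. TG_PS19 mice carry the same tau transgene and also overexpress SORLA from the Rosa26 locus under a CMV/β-actin promoter element. The study asks what raised SORLA does in an aged tauopathy brain. Frozen hippocampi were pooled within each group. The labels give no number, sex or exact age of the animals and do not say if the 2 PS19 libraries are separate pools. The p-values therefore rest only on the spread between the PS19 libraries, which the tests pool in part over genes and which may be technical.

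The libraries held 4643 to 12762 nuclei with a median of 2643 to 3708.5 unique molecular identifiers (UMIs, 1 per captured transcript) each. Human MAPT gave 338, 458 and 438 UMIs in PS19 replicate 1, PS19 replicate 2 and TG_PS19 and 0 in WT, and human SORL1 gave 2227 in TG_PS19 and 0 to 7 elsewhere. Library pairs shared 5 to 32 cell barcodes, and no shared barcode held class II UMIs in both libraries. WT and TG_PS19 have 1 library each, so their spread between animals was not measured. Cell classes were rebuilt from clusters and marker lists that hold no class II gene, and the members and every gene with a symbol starting H2- were kept out of the clustering. A class named microglia therefore means microglia-like nuclei, and the same holds for the other class names.

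MHC class II molecules are pairs of an alpha and a beta chain that show peptides from the endocytic pathway to CD4+ T cells. In the mouse H2-Aa and H2-Ab1 encode the chains of the I-A molecule, and H2-Eb1 encodes the beta chain of I-E. Cd74, the invariant chain, holds the new pair and guides it to the endosome, where cathepsin S and other proteases trim it before H2-DM loads the peptide. Ciita, the class II transactivator, switches the set on by joining RFX and NF-Y proteins at short boxes (X and Y) in front of these genes, and interferon-gamma is its classical inducer. In healthy brain, class II is known mainly from macrophages and dendritic cells at the borders, while microglia carry little and can gain it in disease.

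Class II genes are known for boxes shared by their upstream sequences, so these are shown before the values. In the RefSeq promoter table used here (GRCm38.p6), 2 of the 5 members and 6 of 6 related chain and loading genes were matched by symbol. The window runs 250 bases before the annotated start, on the gene's strand. Stretches of 42 to 45 bases are printed 5′ to 3′, and capitals mark matches to GNAAC, a loose form of an X-box core, and to TGATTGG, a Y-box form. Both motifs were chosen after these sequences had been seen.
H2-Aa: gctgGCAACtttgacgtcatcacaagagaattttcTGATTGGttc
H2-Eb1: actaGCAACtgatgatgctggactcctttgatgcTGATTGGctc
H2-Eb2: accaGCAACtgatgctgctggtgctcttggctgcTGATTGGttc
H2-DMb1: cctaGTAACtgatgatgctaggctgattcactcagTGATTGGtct
H2-Oa: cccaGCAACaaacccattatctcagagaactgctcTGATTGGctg
H2-Ob: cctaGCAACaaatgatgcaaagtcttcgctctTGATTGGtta
The H2-Aa window is chr17:34287824-34288073 on the minus strand, with its matches 81 and 50 bases before the start. The H2-Eb1 window is chr17:34305617-34305866 on the plus strand, with matches 91 and 61 bases before the start. In all 6 the GNAAC match began 28 to 31 bases upstream of TGATTGG, and the search over all promoters allowed 15 to 40 bases. Over 32851 promoters of this length, 7.23% held TGATTGG on either strand, 79.6% held GNAAC, and 0.591% held the pair in that order and spacing on either strand (0.265% on the gene's strand). The windows of H2-DMa and H2-DMb2 held no such pair. A match describes letters only and shows no binding.

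In the mouse annotation that matches the files' identifiers (GENCODE M21, GRCm38), H2-Ab1 (ENSMUSG00000073421.6, plus strand, 34257689 to 34269419), H2-Aa (ENSMUSG00000036594.15, minus strand, 34282744 to 34287823) and H2-Eb1 (ENSMUSG00000060586.11, plus strand, 34305867 to 34316674) lie side by side on chromosome 17. Cd74 (ENSMUSG00000024610.15) and Ciita (ENSMUSG00000022504.10, chromosome 16, 10480059 to 10528418, plus strand) lie elsewhere. Counts are of whole genes, so exon and intron reads are not separated here. The antisense gene Gm20513 overlaps H2-Eb1 over 2204 bases, and Dexi, on the opposite strand, overlaps Ciita over 25888 bases. Whether the counting used strand is not stated in the sources used here, so that reads from such neighbours cannot be told apart in H2-Eb1 and Ciita. The class II genes also differ between mouse strains, and the pools' H2 alleles are not in the labels. The part of such alleles in the counts was not tested.

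Cd74 was highest, in every library, in a small unnamed cluster led by Mrc1, and which class came next differed between the groups. Levels are given in CPM, the UMIs of a gene scaled to 1000000 UMIs of its class and library, with exact 95% Poisson intervals, which cover counting error only. In the Mrc1-led cluster Cd74 stood at 5070 CPM (4224 to 6037) in WT, 1631 (1056 to 2408) and 1454 (1023 to 2004) in the PS19 libraries and 3129 (2543 to 3809) in TG_PS19. Microglia came second in both PS19 libraries, with 314 (273 to 360) and 206 (176 to 240) CPM. In WT and TG_PS19 the second place was held by a fibroblast cluster led by Slc47a1, with 55.4 (36.5 to 80.6) and 90.3 (46.7 to 158) CPM, and microglia stood lower, at 23.1 CPM (14.6 to 34.6) and 5.52 CPM (1.503 to 14.1). The intervals of these fibroblasts and of microglia did not overlap in any library. This fibroblast cluster held 174 nuclei in WT and 40, 43 and 47 in the others, and its Cd74 level in the PS19 replicates was 98.6 (53.9 to 165) and 53.1 (24.3 to 101) CPM, so that its 4 intervals overlapped each other.

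An unnamed low-UMI cluster led by Ttr, 661 of whose nuclei were from TG_PS19, held 18 Cd74 UMIs (20.1 CPM) in that library and at most 1 in the others. Under these came a broad low level in which neighbouring classes did not differ beyond their counting intervals. Fibroblasts led by Lama1 held 1.67 to 10.5 CPM of Cd74, endothelial nuclei 2.55 to 20.3, mural nuclei 3.83 to 15.5, oligodendrocytes 3.33 to 5.74, astrocytes 0.563 to 4.78 and dentate granule neurons 0.963 to 2.86. Dentate granule neurons are not a class II cell, and free RNA in droplets can give such counts, so their level is used as a rough background. Free RNA was not measured. These nuclei are deeper than microglia, so their CPM and thinned share may be lower than what free RNA gives in microglia. With each nucleus thinned to 1000 UMIs, 0 to 0.365% of dentate granule nuclei had a Cd74 UMI. The same share in microglia was 1.61% (0.740 to 3.04) in WT, 14.3% (10.3 to 19.2) and 8.13% (5.22 to 11.9) in the PS19 libraries and 0.506% (0.0614 to 1.82) in TG_PS19. Before thinning, the shares in microglia were 1.70%, 21.4%, 14.8% and 0.973% at median depths of 1605.5, 2211.5, 2571.5 and 1643 UMIs, against 1.12%, 2.49%, 2.73% and 0.702% of dentate granule nuclei at medians of 6476.5, 8574.5, 10139 and 7678. In TG_PS19, Cd74 in microglia was thus not distinguishable from this background at this depth, while both PS19 libraries stood above it. In WT the shares before thinning were close (1.70% and 1.12%), and whether they differ was not tested.

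**Figure D1:**
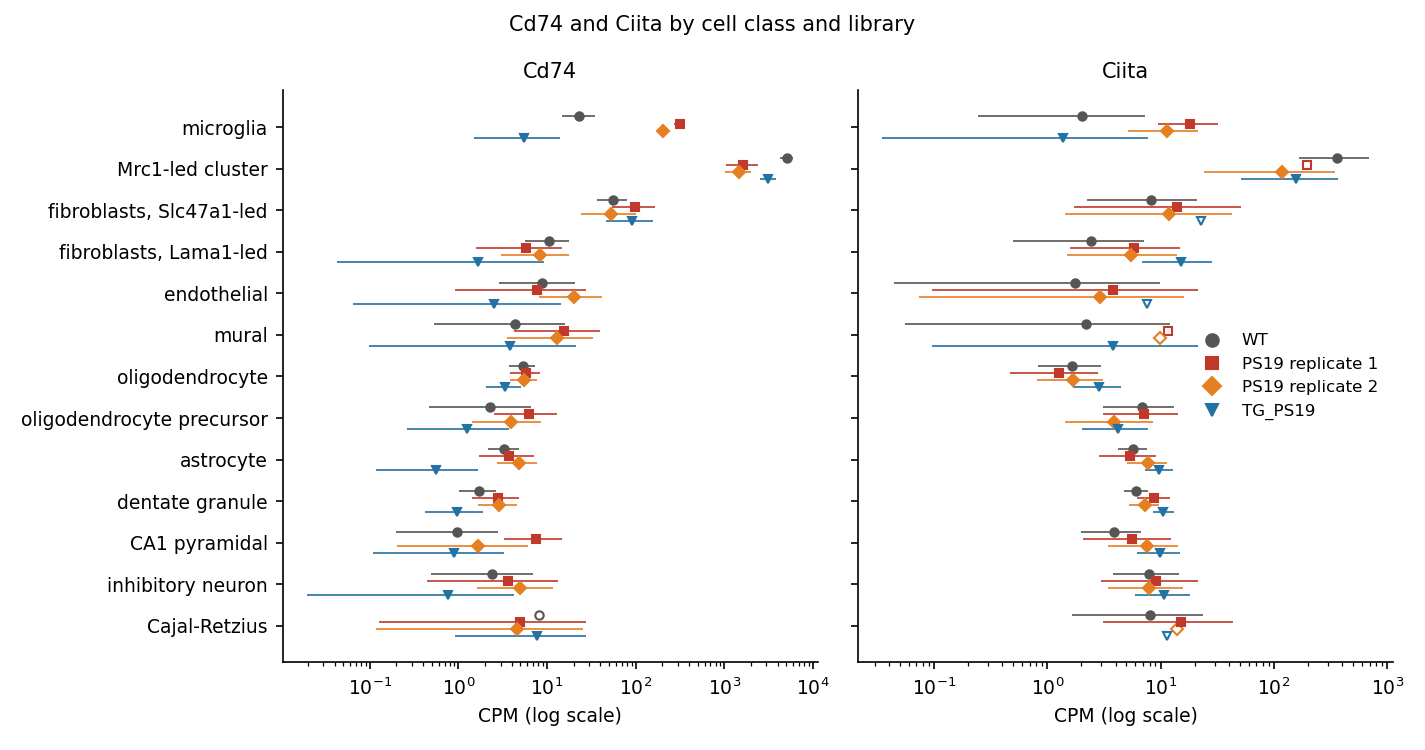
Cd74 (left) and Ciita (right) in CPM on a log axis for each cell class, 1 point per library with its exact 95% Poisson interval; open symbols mark libraries with 0 UMIs, drawn at the level of 3 counts. For Cd74 the PS19 points in microglia (314 and 206 CPM) stand apart from WT (23.1) and TG_PS19 (5.52), and in the Mrc1-led cluster WT is the highest (5070).

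Ciita had another distribution. It was spread over many classes, and neurons together held 96, 53, 63 and 139 of its 220, 110, 142 and 271 UMIs in WT, PS19 replicate 1, PS19 replicate 2 and TG_PS19. Dentate granule neurons held 6.10, 8.78, 7.24 and 10.6 CPM and astrocytes 5.71, 5.37, 7.78 and 9.76 CPM. Microglia held 2.01 CPM (0.243 to 7.25), 18.3 (9.46 to 32.0), 11.3 (5.17 to 21.5) and 1.38 (0.0349 to 7.68), so that outside PS19 they were not above neurons. The Mrc1-led cluster had 9, 0, 3 and 5 UMIs (362, 0, 118 and 158 CPM), the highest level in every library but PS19 replicate 1. Dexi, whose gene covers part of Ciita on the other strand, was present at 41.2, 30.5, 30.1 and 45.5 CPM in microglia and 33.2, 39.5, 35.3 and 38.4 CPM in dentate granule neurons, and its part in the Ciita counts was not tested.

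In microglia, 4 of the 5 genes were higher in PS19 than in WT, and the same 4 were lower in TG_PS19 than in PS19. The class held 588, 262, 284 and 411 nuclei in WT, PS19 replicate 1, PS19 replicate 2 and TG_PS19, and all 10 of its markers were detected in every library. Each test was edgeR's quasi-likelihood test on UMI sums per library with Benjamini-Hochberg adjustment over 10646 genes, called at a threshold of 0.05. Across all genes, 3.51% were called in PS19 against WT (2.07% as higher) and 3.96% in TG_PS19 against PS19 (2.16% as lower). Only the PS19 pair gives a spread (1 residual degree of freedom), and the lone libraries are assumed to vary like it. H2-Aa, H2-Ab1 and H2-Eb1 passed the low-count filter only through the PS19 libraries, and Ciita only through PS19 replicate 1, so the count of 4 is a description of genes that entered the test through the group where they are high. Cd74 reached the filter in WT and in both PS19 libraries.

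Cd74, the invariant chain, gave 23 UMIs in WT, 206 and 164 in the PS19 libraries and 4 in TG_PS19. Both PS19 libraries were far above the other 2, and the groups did not overlap. The PS19 mean was 260 ± 76.6 CPM (SD, n = 2 libraries), which pooled to 11.0 times WT (exact 95% counting interval 7.24 to 17.6) and 46.2 times TG_PS19 (17.9 to 170). The edgeR log2 fold change from WT to PS19 was 3.47 (SE 0.34, adjusted p = 0.000854), and from PS19 to TG_PS19 it was -5.42 (SE 0.49, adjusted p = 0.00055). Those changes were larger than the difference between the PS19 libraries, of which replicate 1 was the higher.

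H2-Aa, the I-A alpha chain, gave 6, 42, 25 and 2 UMIs in the same order, or 6.02 CPM (2.21 to 13.1), 64.1 (46.2 to 86.6), 31.4 (20.3 to 46.3) and 2.76 (0.334 to 9.97). Its PS19 libraries differed from each other more than those of the other chains, and both were still above WT and TG_PS19. By the same edgeR test H2-Aa rose in PS19 with a log2 fold change of 2.92 (SE 0.60, adjusted p = 0.0273), and from PS19 to TG_PS19 it changed by -3.92 (SE 0.78, adjusted p = 0.0221). H2-Ab1, the partner beta chain, gave 11, 32, 32 and 2 UMIs, or 11.0 CPM (5.51 to 19.8), 48.8 (33.4 to 68.9), 40.2 (27.5 to 56.7) and 2.76 (0.334 to 9.97). Its PS19 libraries were close to each other, and pooled they stood at 3.99 times WT (2.09 to 8.40). Whether this rise differs from that of the other chains was not tested. The edgeR log2 fold changes were 1.98 (SE 0.42, adjusted p = 0.0305) and -3.84 (SE 0.62, adjusted p = 0.00802).

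H2-Eb1, the I-E beta chain, gave 3, 23, 20 and 0 UMIs, or 3.01 CPM (0.621 to 8.80), 35.1 (22.2 to 52.7), 25.1 (15.3 to 38.8) and 0 (up to 4.14 CPM at 3 counts). All 3 WT UMIs came from 1 nucleus. The PS19 libraries pooled to 9.84 times WT (3.15 to 49.6), and their mean of 30.1 ± 7.06 CPM (SD, n = 2 libraries) was at least 7.27-fold higher than TG_PS19, taking 3 counts as the floor of that library. The adjusted p was 0.0418 for PS19 against WT, with a log2 fold change of 3.24 (SE 0.74), and 0.0204 for TG_PS19 against PS19, both by edgeR. Ciita, the transactivator, gave 2, 12, 9 and 1 UMIs, and its PS19 libraries were also the highest. It was not called in either comparison, with log2 fold changes of 2.77 (SE 1.24, adjusted p = 0.329) and -3.18 (SE 1.46, adjusted p = 0.314). At so few UMIs the counting interval of its ratio to WT ran from 1.76 to 63.4.

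TG_PS19 and WT could not be separated by these genes. None of the 5 was called between them by edgeR (0.0188% of all genes were), DESeq2 called 0 as well, and 2 of 5 reached an unadjusted p under 0.05. The values of Cd74 (4 against 23 UMIs, log2 fold change -1.95, SE 0.79, adjusted p = 0.791) and H2-Ab1 (2 against 11 UMIs, -1.86, SE 0.83, adjusted p = 0.792) were lower in TG_PS19. For Cd74 the WT side of that difference rests heavily on 1 nucleus, which held 14 of the 23 Cd74 UMIs in a total of 1193 UMIs. It also held all WT UMIs of H2-Eb1, but only 3 of the 11 of H2-Ab1. That nucleus had 13 UMIs of the microglial markers and 0 of the border macrophage, dendritic, B cell and T cell lists. Without it, WT Cd74 stood at 9 UMIs, or 9.04 CPM (4.14 to 17.2), which overlaps the TG_PS19 interval, and the log2 fold change of Cd74 in PS19 against WT was 4.80 (edgeR adjusted p = 0.000177).

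**Figure D2:**
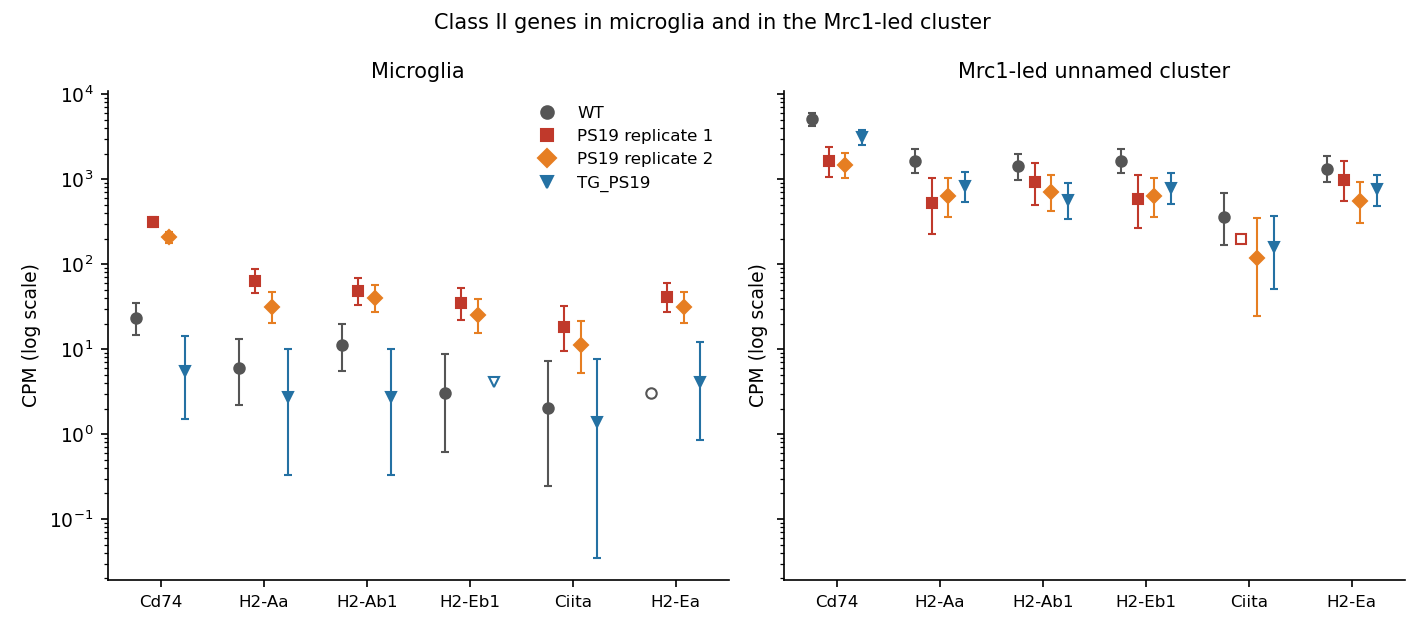
The 5 class II genes and H2-Ea in microglia (left) and in the Mrc1-led cluster (right), in CPM on a log axis, 1 point per library with its exact 95% Poisson interval; open symbols mark libraries with 0 UMIs, drawn at the level of 3 counts. In microglia both PS19 points lie highest for every gene, while in the Mrc1-led cluster WT lies highest for all 6.

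The calls of the H2 genes were lost under more settings than that of Cd74. Cd74 was the only member called in either comparison with every nucleus thinned to 1000 UMIs, and also with DESeq2. Of the members, DESeq2 gave an adjusted p for Cd74 alone. Over all genes, thinning gave 476 calls in PS19 against WT and 442 in TG_PS19 against PS19, of 7474 genes. DESeq2 gave 66 and 88 of 10646. With TG_PS19 reduced to the 120 of 411 nuclei that had Y-linked and no Xist UMIs, H2-Ab1 was not called against PS19 (edgeR adjusted p = 0.0943). With doublets kept, H2-Eb1 was not called in PS19 against WT (log2 fold change 1.79, edgeR adjusted p = 0.0635), and that of H2-Aa was 1.85. Leaving out microglial nuclei with 2 or more UMIs of the other immune lists removed 293 of 588, 175 of 262, 195 of 284 and 236 of 411 nuclei, and then Cd74 was the only member that passed the low-count filter. It was not called in PS19 against WT and was called in TG_PS19 against PS19. With that alternative the log2 fold change of Cd74 was 1.34 in PS19 against WT (edgeR adjusted p = 0.0917). Much of this removal came from genes that microglia express in every library, such as Stab1 (188, 114, 124 and 192 CPM), Bank1 and Csf3r. With those list genes set aside, a choice made after the data were seen, 3, 8, 8 and 2 nuclei were removed and the same 4 genes were called. Of all 10552 genes tested in that setting, 780 were called in PS19 against WT and 844 in TG_PS19 against PS19. Some defining genes of other immune cells were at 0 in the microglia of all 4 libraries: Cd163 and Lyve1 of the border macrophage list, Xcr1, Cd209a, Ccr7 and Clec10a of the dendritic list, Pax5 of the B cell list, and S100a8, S100a9 and Retnlg of the monocyte or neutrophil list. Others were not. Ms4a7, a border macrophage gene, stood at 0, 25.9, 27.6 and 0 CPM, and the dendritic genes Flt3 and Zbtb46 at 4.02, 19.8, 12.6 and 12.4 and at 7.03, 13.7, 8.79 and 2.76 CPM. The B cell gene Igkc gave 29 UMIs (36.4 CPM) in PS19 replicate 2 and 0 or 1 elsewhere. The whole lists summed to 202, 142, 156 and 193 CPM for border macrophages and 51.2, 68.7, 55.2 and 45.5 CPM for dendritic cells. Without the list genes at 10 CPM or more in every library the sums were 14.1, 27.5, 31.4 and 1.38 CPM and 11.0, 35.1, 21.3 and 15.2 CPM, both highest in PS19. The summed monocyte or neutrophil list, nearly all Csf3r, was 330, 606, 618 and 417 CPM. The part of such cells in the result was not tested.

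The class II UMIs of PS19 microglia were detected in a minority of nuclei. At least 1 UMI of the 5 genes was seen in 22 of the 588 WT nuclei (3.74%, exact binomial interval 2.36 to 5.61), 68 of 262 (26.0%, 20.8 to 31.7) and 54 of 284 (19.01%, 14.6 to 24.1) PS19 nuclei and 8 of 411 TG_PS19 nuclei (1.95%, 0.844 to 3.80). Nuclei with 2 or more such UMIs numbered 2, 38, 30 and 1, or 0.340%, 14.5%, 10.6% and 0.243%. In PS19, 194 of 262 and 230 of 284 microglial nuclei gave none at this depth. Nuclei with 5 or more UMIs numbered 22 and 15 in the PS19 libraries and held 77.5% and 74.8% of all class II UMIs of the class. In WT 1 nucleus reached 5 UMIs, the nucleus described above with 23, and in TG_PS19 none did, the highest holding 2. The highest PS19 nuclei held 33 and 40.

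The genes occurred together in single nuclei. Of the PS19 microglial nuclei with a Cd74 UMI, 27 of 56 and 20 of 42 also had a UMI of at least 1 other member, against 1 of 10 in WT and 1 of 4 in TG_PS19. Nuclei with UMIs of 3 or more of the 5 genes numbered 17 and 11 in PS19, 1 in WT and 0 in TG_PS19. Nuclei with a member UMI but none of Cd74 were 12, 12, 12 and 4, or 2.04%, 4.58%, 4.23% and 0.973% of the class. At 1000 UMIs per nucleus, with 30, 4, 1 and 16 shallower nuclei left out, the share with any member UMI was 2.33% in WT, 18.6% and 11.7% in PS19 and 1.27% in TG_PS19. The difference between the groups was thus present at equal depth too.

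**Figure D3:**
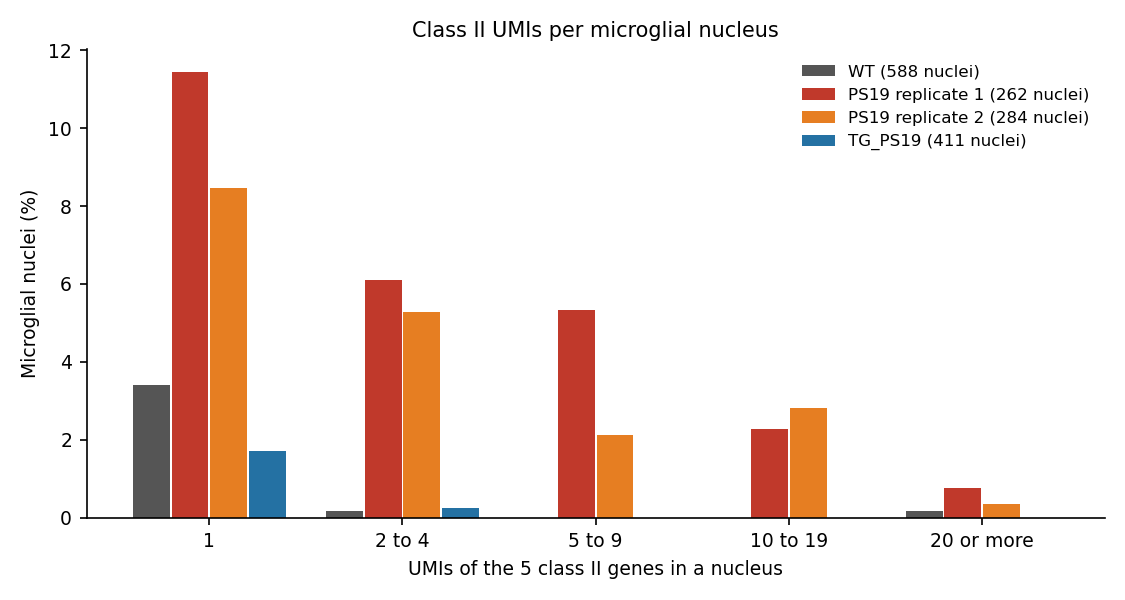
Share of microglial nuclei (percent, vertical axis) by the number of UMIs of the 5 class II genes in a nucleus (horizontal axis), 1 bar per library; nuclei with 0 are not drawn. Nuclei with 5 or more are found in both PS19 libraries (22 and 15), once in WT and not in TG_PS19.

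At a finer clustering, microglia split into a cluster shared by all libraries (569, 84, 81 and 406 nuclei) and one that was nearly all PS19 (19, 177, 203 and 5 nuclei). The split was made without class II genes, and since it separates the libraries the second cluster may be those libraries and not a type. Cd74 gave 0, 170, 149 and 0 UMIs in the PS19-dominated cluster, or 356 and 245 CPM in the PS19 libraries. Within that cluster 33 of 177 and 28 of 203 PS19 nuclei (18.6% and 13.8%) had 2 or more class II UMIs. At a median of 2470 and 2702 UMIs a nucleus, nuclei that gave none may still express these genes. In the shared cluster Cd74 gave 23, 36, 15 and 4 UMIs, or 24.2, 207, 80.0 and 5.60 CPM. PS19 was above WT there too, by less and unevenly: 20 of the 36 UMIs of replicate 1 lay in 1 nucleus. Taking the shared cluster alone, an alternative added after the data were seen, Cd74 was the 1 call among the 3 members tested by edgeR. Its edgeR log2 fold changes were 2.51 (adjusted p = 0.00036) in PS19 against WT and -4.52 (adjusted p = 5.6e-09) in TG_PS19 against PS19. Of 8863 genes tested there, 37 and 49 were called in these comparisons.

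Nuclei rich in class II were then compared with those that had no such UMI, as a description. Over the named immune classes, microglia and T cells, of all libraries, 71 nuclei with 2 or more member UMIs were set against 1433 with 0, at median depths of 2712 and 1791 UMIs, and 38 and 30 of the 71 were from the PS19 libraries. H2-Ea led the list, with 217 CPM against 2.46. Lpl, a lipase of the disease-associated microglial programme, came next with 309 against 14.4 CPM. Then followed Ctnna3 (327 against 28.2 CPM), Trpc4, Lrrtm3, Gm15345, Gm15155, Marchf3 and St8sia6. The kinase gene Fgr was the last of the top 10, with 411 against 71.5 CPM. The comparison mixes PS19 with the rest, so it was repeated within the microglia of PS19 alone. There Lpl held 373 against 26.1 CPM in replicate 1 and 252 against 32.0 CPM in replicate 2. Itgax, coding for integrin alpha X, held 84.8 against 43.6 and 164 against 28.8 CPM. Clec7a held 161 against 118 and 397 against 126 CPM. Axl, Csf1, Cst7, Spp1, Apoe, Cd9, Ccl6 and Fth1 of the disease-associated list were also higher in both replicates, Cd9 and Fth1 by little. The rest of that list did not follow in both. Cd63 held 127 against 203 and 87.1 against 141 CPM, and Lgals3 25.4 against 28.3 and 0 against 25.6. Gpnmb held 144 against 80.6 in replicate 1 and 0 against 35.2 in replicate 2, and Tyrobp 271 against 253 and 164 against 224 CPM. The homeostatic gene Tmem119 was lower in the class II nuclei, at 42.4 against 170 and 77.4 against 125 CPM. Trem2, a microglial lipid receptor, held 449 against 492 and 299.9 against 398 CPM. Of the border macrophage genes, Cd163 was at 0 in the class II nuclei of both replicates, Mrc1 gave 0 and 2 UMIs there against 1 and 0 in nuclei with none, and Ms4a7 held 42.4 against 26.1 and 96.7 against 7.99 CPM. The part of such cells was not tested.

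The Mrc1-led cluster showed the opposite order of groups. It had 16, 7, 11 and 16 nuclei, too few for a test, and 9 of 10 microglial, 7 of 8 border macrophage and 5 of 8 dendritic markers were raised in it. It was left unnamed because its leading genes held more border macrophage than microglial markers. Its leading genes by fold were Mrc1, Cd74, F630028O10Rik, F13a1 and H2-Eb1, although no class II gene was used to form it. Cd74 gave 126, 25, 37 and 99 UMIs there, H2-Aa 41, 8, 16 and 26, H2-Ab1 35, 14, 18 and 18, and H2-Eb1 41, 9, 16 and 25. PS19 pooled to 0.300 times WT for Cd74 (0.218 to 0.410), 0.357 for H2-Aa (0.206 to 0.605), 0.557 for H2-Ab1 (0.334 to 0.927) and 0.372 for H2-Eb1 (0.217 to 0.626). Against TG_PS19 the ratio was 0.486 (0.348 to 0.674) for Cd74, while the intervals for the 3 chains and Ciita held 1. Single nuclei ranged from 0 to 47 member UMIs in WT with a median of 10.5, from 0 to 20 and 0 to 63 in PS19 with medians of 2 and 0, and from 0 to 46 in TG_PS19 with a median of 2.

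The makeup of this cluster differed between the libraries. Its summed border macrophage markers were 2334 CPM in WT against 9266, 8839 and 10144 CPM in the others, and Lyve1 and Pf4 were at 0 in WT. The dendritic list was at 966, 1044, 786 and 853 CPM. Doublet removal also took 33 of 49 WT barcodes from the cluster, and 0, 0 and 3 of the others. With doublets kept, Cd74 stood at 2393 CPM (2093 to 2724), 1631 (1056 to 2408), 1608 (1164 to 2166) and 2055 (1698 to 2465). For Cd74 the order remained with WT highest but by less. The members summed stood at 4505 CPM in WT, 3654 and 3964 in the PS19 libraries and 3472 in TG_PS19. In that sum both PS19 libraries lay above TG_PS19, unlike the order with doublets removed. Whether makeup or doublets account for the order of the groups was not tested. Adding this cluster to the microglia, an alternative chosen after the data were seen, lowered the log2 fold change of Cd74 in PS19 against WT to 1.00. Cd74 was then the only member called in that comparison, where 845 of 10896 genes were called.

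These places add up differently in each group. Of the Cd74 UMIs in kept nuclei, microglia held 7.69% in WT (23 of 299), 62.0% and 51.9% in the PS19 replicates (206 of 332 and 164 of 316) and 2.26% in TG_PS19 (4 of 177). The Mrc1-led cluster held 42.1%, 7.53%, 11.7% and 55.9%. Over all nuclei summed, Cd74 stood at 7.35, 17.7, 12.9 and 5.26 CPM, and in such a sum fewer cells of a type and less RNA per cell cannot be told apart. In that sum Cd74 was called higher in PS19 than in WT, the only member of 5 (log2 fold change 1.03, SE 0.17, edgeR adjusted p = 2.86e-06), where 10.3% of 25139 genes were called. All 5 members were called in TG_PS19 against PS19, where 16.8% of genes were: Cd74 at -1.43 (adjusted p = 2.64e-09), H2-Aa at -0.93 (0.0235), H2-Ab1 at -1.24 (0.002) and H2-Eb1 at -1.04 (0.0231), with Ciita in the other direction at 0.57 (0.0237). Ciita was also the only member called in TG_PS19 against WT, at 0.66 (edgeR adjusted p = 0.0271), where 10.2% of genes were called.

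Outside microglia few of these genes could be tested and few were called. In 7 other classes the members gave 14 tests per comparison. None was called in PS19 against WT by edgeR, and 0 reached an unadjusted p under 0.05. Of all genes in these classes, from 44 of 12622 (CA1 pyramidal neurons) to 951 of 16552 (astrocytes) were called there. At such shares a count of 0 among 14 tests is not read as a result about these genes. DESeq2 called none either, but gave an adjusted p for only 6 of the 14. In TG_PS19 against PS19, Cd74 in astrocytes was the 1 call, with 9 and 16 UMIs in PS19 (3.72 and 4.78 CPM) against 3 in TG_PS19 (0.563 CPM), a log2 fold change of -2.71 (SE 0.86, adjusted p = 0.0231), where 9.31% of genes were called. Those levels rest on few UMIs and are near those of dentate granule neurons in the same libraries (2.77, 2.86 and 0.963 CPM), the rough background used above. The call is therefore not read as a change in astrocytes. In TG_PS19 against WT, Ciita in dentate granule neurons was the 1 call, with 88 against 68 UMIs (10.6 and 6.10 CPM), a log2 fold change of 0.91 (SE 0.29, adjusted p = 0.0381), where 5.79% of genes were called. Neither call was made by DESeq2, which gave an adjusted p for only 2 and 6 of the 14 tests in these comparisons. The call of Ciita was also lost with library totals as scaling and with no low-count filter. T cells, the partners of class II, numbered 3, 16, 17 and 5 nuclei. They held Cd8a UMIs (1, 5, 11 and 1) and 0 of Cd4, and Ifng was found only in PS19 replicate 2, with 2 UMIs.

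Of the wider pathway, some genes moved with the class II chains in microglia, and most of those tested were not called. The list of 41 genes covers chain loading, peptide making, turnover, transcription, interferon-gamma input and costimulation, and 32 were tested. By the edgeR test 4 were higher and 1 lower in PS19 than in WT, and 27 were not called. Of all genes 3.51% were called there (2.07% as higher). The list median was 0.44 on the log2 scale against 0.01 over all genes. In TG_PS19 against PS19 1 was higher, 6 were lower and 25 were not called, with a median of -0.44 against -0.01. Of all genes 3.96% were called there (2.16% as lower). In TG_PS19 against WT 0 of the list were called, and 0.0188% of all genes. H2-Ea, the I-E alpha chain gene that the annotation lists as a polymorphic pseudogene, gave 0, 27, 25 and 3 UMIs and followed H2-Eb1. Its PS19 mean of 36.3 ± 6.93 CPM (SD, n = 2 libraries) was at least 12.1-fold higher than WT at a floor of 3 counts (edgeR adjusted p = 0.00536) and 8.66 times TG_PS19 (2.80 to 43.3; log2 fold change -2.99, adjusted p = 0.0377). Its WT and TG_PS19 levels were under the filter cutoff of 13.1 CPM, as were those of Nlrc5, so both entered the test only through PS19. In the Mrc1-led cluster H2-Ea gave UMIs in all 4 libraries (33, 15, 14 and 24), so the gene was transcribed in WT as well.

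Nlrc5, the relative of Ciita that acts on MHC class I genes, gave 3, 30, 44 and 3 UMIs. Both PS19 libraries stood apart from the others. The edgeR test gave it a log2 fold change of 4.00 (SE 0.53) with an adjusted p of 0.00306 in PS19 against WT, and of -3.48 (SE 0.55) with 0.00739 in TG_PS19 against PS19. Lag3, a class II binding receptor, gave 44, 104, 83 and 30 UMIs, with 1.55 (adjusted p = 0.0232) and -1.56 (0.0303). Ctsb, coding for cathepsin B, rose by 1.05 (adjusted p = 0.0178) and fell by 1.55 (0.00401). Cathepsin D (Ctsd, -1.30, adjusted p = 0.0289) and the checkpoint ligand Cd274 (-2.26, adjusted p = 0.0219) were called by edgeR in TG_PS19 against PS19 only, as lower. In PS19 against WT they stood at 0.72 (SE 0.26) and 1.01 (SE 0.34) and were not called. In TG_PS19 against WT they stood at -0.58 and -1.25, also not called. Whether the comparisons differ in size was not tested. Ifngr1, a chain of the interferon-gamma receptor, went the other way, with -0.69 (adjusted p = 0.0484) in PS19 against WT and 0.82 (0.0267) in TG_PS19 against PS19, where it stood at -0.0114 once the Ttr-led cluster was added.

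Of the genes of loading, trimming and turnover that were named whatever their result, H2-DMa, H2-DMb1, Ctss and Marchf1 were not called in PS19 against WT. H2-DMa, the peptide loader's alpha chain, gave 34.1, 45.8, 30.1 and 26.2 CPM, and the log2 value of PS19 over WT was 0.13 (SE 0.35, edgeR adjusted p = 0.902). H2-DMb1, its beta chain, gave 22.1, 29.0, 22.6 and 15.2 CPM (0.21, SE 0.41, adjusted p = 0.873). Ctss, coding for cathepsin S, gave 1299.9, 1591, 1292 and 1252 CPM (0.14, SE 0.17, adjusted p = 0.775), and Marchf1, the ligase that removes class II from the surface, gave 496, 478, 476 and 603 CPM (-0.06, SE 0.15, adjusted p = 0.893). These genes had UMIs in every library. In WT, H2-DMa and H2-DMb1 gave 34 and 22 UMIs, beside 23 of Cd74, 6 of H2-Aa, 11 of H2-Ab1 and 3 of H2-Eb1. In TG_PS19 they gave 19 and 11, beside 4, 2, 2 and 0. Of the other loading genes, WT gave 5 UMIs of H2-DMb2, 1 of H2-Oa and 50 of H2-Ob, so not all loading transcripts exceeded the chains. A missed threshold does not show equal levels, and the intervals of H2-DMa and H2-DMb1 are wide.

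**Figure D4:**
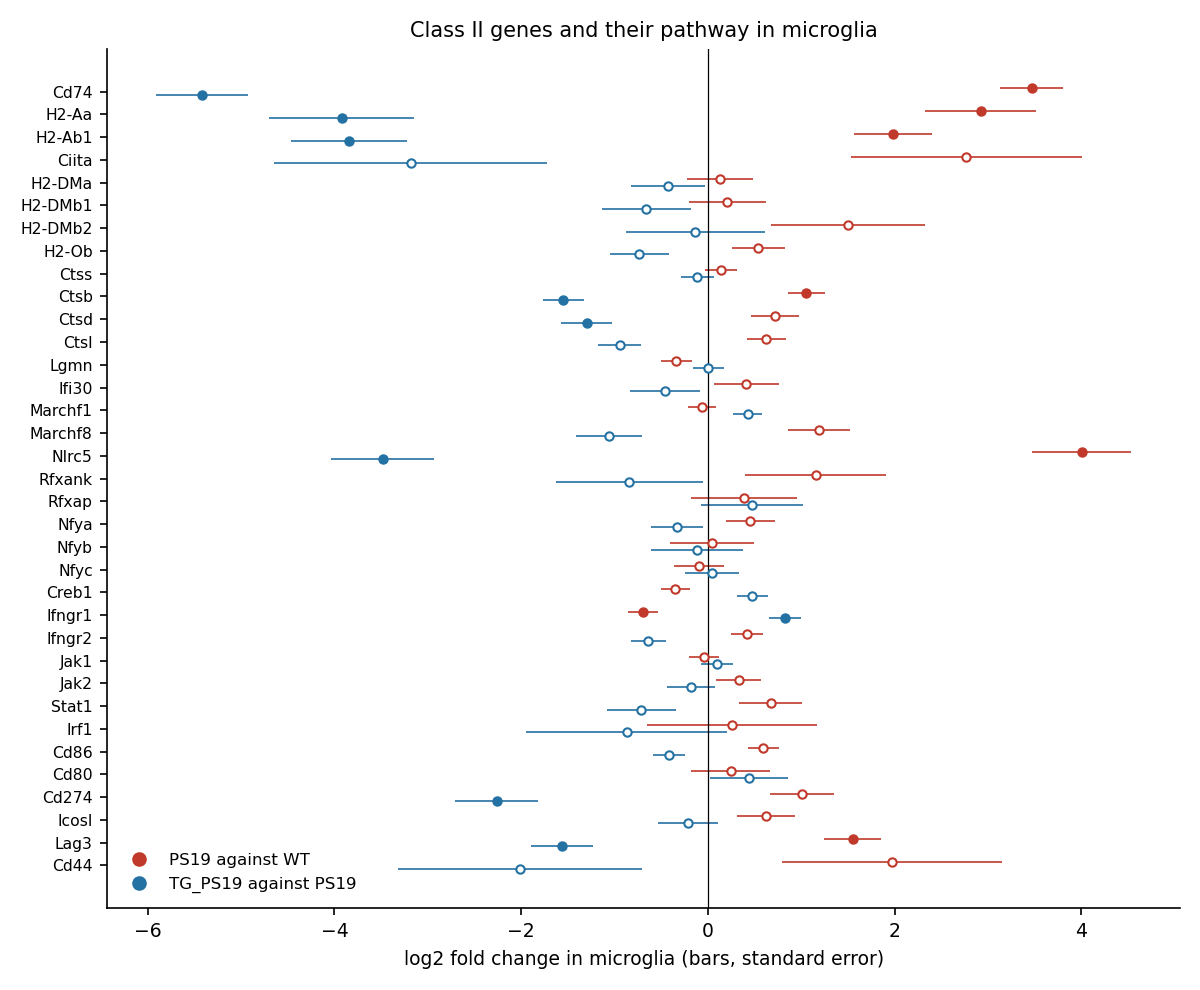
Log2 fold change in microglia (horizontal axis, bars are standard errors) for the class II genes and genes of their pathway, in PS19 against WT (red) and TG_PS19 against PS19 (blue); filled points passed the adjusted threshold of 0.05. H2-Eb1 and H2-Ea are left out since 1 library holds 0 UMIs of each; Cd74 (3.47 and -5.42) and Nlrc5 (4.00 and -3.48) lie far from 0, and Ctss and H2-DMa near it.

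A list of 16 disease-associated microglial genes, chosen with earlier results of these data known and so no independent evidence, moved in the same comparisons. In PS19 against WT 9 of the 16 were called higher and 0 lower by edgeR, with a median log2 fold change of 2.64 (3.51% of all genes were called). In TG_PS19 against PS19 11 were lower and 0 higher, with a median of -2.77 (3.96% of all genes). Clec7a, Itgax, Lpl, Gpnmb, Lgals3 and Cst7 passed the low-count filter only through PS19, the group where they are high, so these counts are a description. Clec7a gave 4, 76, 131 and 3 UMIs (4.02, 116, 164 and 4.14 CPM). Axl gave 15, 89, 87 and 4 UMIs (15.1, 136, 109 and 5.52 CPM). In both genes, as in Cd74, the PS19 libraries stood above WT and TG_PS19. Trem2, at 429, 314, 303 and 287 UMIs, was not called (-0.01, SE 0.17, adjusted p = 0.983).

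The genes whose pattern was most like the summed class II level were found over 52 sums of class and library in 14 classes, among 16197 genes, as Pearson's r of log2(CPM + 10). The points share libraries and depth, and the Mrc1-led cluster is not among them. The highest were the chemokine genes Ccl3 (r = 0.89) and Ccl4 (0.88) and the integrin gene Itgax (0.88), then Gm26714 (0.88), Cd22 (0.88), Lilrb4a (0.87), Ccl12 (0.87) and Fgr (0.86). In microglia Ccl4 stood at 18.1, 140, 152 and 1.38 CPM and Itgax at 5.02, 50.4, 45.2 and 2.76 CPM, in both cases with PS19 high and the other libraries low. Outside microglia none of these 8 exceeded 7.04 CPM in any class, where Cd74 reached 23.2 CPM in fibroblasts. Among the members, each was set against the sum of the other 4 over the same sums: r was 0.84 for Cd74, 0.85 for H2-Aa, 0.84 for H2-Ab1 and 0.80 for H2-Eb1, but 0.12 for Ciita, whose UMIs were spread over neurons and astrocytes.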

How the data were processed

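Nuclei from frozen pooled hippocampus were run on a 10x 3′ v3.1 kit, per the labels' protocols. The authors deposited raw UMI counts per gene and nucleus, made with Cell Ranger 7.1.0 on GRCm38, per the submitters' processing notes. Intron and strand settings are not given in the sources used here. Of 55403 features, 54349 were in GENCODE M21.

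Nuclei with at least 500 UMIs, 300 genes and at most 5% mitochondrial UMIs were kept, and doublets were removed by simulated doublets at an expected 0.8% per 1000 nuclei, in each library (172 to 1303 barcodes). Kept nuclei numbered 11458, 4467, 4728 and 8963 in WT, PS19 replicate 1, PS19 replicate 2 and TG_PS19. Scaled counts (2000 variable genes, 30 components, 15 neighbours) were clustered with leidenalg 0.10.2 at resolution 1 into 31 clusters, named from 19 marker lists where at least 4 markers of a list were raised, or at least 3 that made up 50% of it. Clusters whose leading genes held more markers of another list, or that were of low UMI count with no own marker leading, stayed unnamed. Counts were summed per class and library and tested with edgeR 4.0.16 (R 4.3.3, TMM scaling, filterByExpr) over all 4 libraries in classes of at least 50 nuclei in each. DESeq2 1.42.0 was an alternative. Scripts were tested on simulated data. Intervals are exact Poisson or Clopper-Pearson at 95%, the floor for 0 is 3 counts, and both cover counting error only. Named genes were the 5 members, at most 12 called pathway genes, 5 fixed pathway genes, the 8 most like in pattern and the 10 leading genes of class II nuclei. The members and lists were chosen with earlier results of these data known.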

Additional observations from a re-analysis of the deposited data

Results flagged for a closer look

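In 9 of the comparisons of microglia with the Mrc1-led cluster the PS19 libraries moved in opposite directions. In microglia both PS19 libraries lay above the library compared, and in the Mrc1-led cluster both lay under it. The difference was not tested, since the cluster holds 7 to 16 nuclei a library. On the log2 scale the pooled PS19 level in the cluster relative to WT was -1.74 for Cd74, -1.49 for H2-Aa, -0.84 for H2-Ab1, -1.43 for H2-Eb1 and -2.30 for Ciita. Relative to TG_PS19 it was -1.04 for Cd74, -0.48 for H2-Aa, -0.37 for H2-Eb1 and -1.10 for Ciita. As ratios to TG_PS19, the counting intervals of H2-Aa (0.394 to 1.30), H2-Eb1 (0.428 to 1.41) and Ciita (0.0723 to 2.39) held 1. H2-Ab1 was the exception, since both PS19 libraries were above TG_PS19 in the cluster as well, at 1.38 times pooled. Of the members, Ciita rests on the fewest counts there, with 9 UMIs in WT, 0 and 3 in PS19 and 5 in TG_PS19. Doublet removal took 33 of 49 WT barcodes from the cluster. With doublets kept, the 5 members summed to 3654 and 3964 CPM in PS19 against 3472 in TG_PS19.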

How the results depend on the processing

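Cd74 in microglia was called in 15 of 16 settings with a test in PS19 against WT (log2 fold change 1.00 to 4.80, edgeR or DESeq2 adjusted p 6.01e-33 to 0.0917) and in 17 of 17 in TG_PS19 against PS19 (-5.73 to -1.02). Ciita was called in none. Of the 5 members, 4 were called in both comparisons. The count in PS19 against WT was 1 with DESeq2 (which gave an adjusted p for 1 gene), with nuclei thinned, in the shared cluster and with the Mrc1-led cluster added, 3 with doublets kept, and 0 without nuclei holding other immune UMIs, where Cd74 alone passed the filter. In TG_PS19 against PS19 it was 1 with DESeq2, thinning, the shared cluster and without such nuclei, and 2 with the Mrc1-led cluster. In TG_PS19 against PS19, other classes gave 1 call and 0 with DESeq2, and all nuclei gave 5 and 1 with DESeq2. In TG_PS19 against WT, other classes gave 1 call, and 0 with DESeq2, library totals or no filter, and all nuclei gave 1 call, and 0 with DESeq2 or library totals. In these comparisons DESeq2 gave an adjusted p for only 2 and 6 of the 14 tests in other classes. Over all nuclei it did so for 4 and 2 of the 5 members. Some uncalled values reversed. H2-DMa in PS19 against WT was -0.50 in the shared cluster, -0.16 thinned and -0.24 without other immune UMIs, and 0.18 in TG_PS19 against PS19 in the shared cluster. Marchf1 was 0.13 in PS19 against WT in the shared cluster. Ifngr1 in TG_PS19 against PS19 was -0.0114 with the Ttr-led cluster added. In TG_PS19 against WT, H2-Aa was 0.0805 with that cluster, and Ciita was 0.88 with it, 0.58 with doublets kept and 1.18 in the 120 of 411 TG_PS19 nuclei with Y-linked and no Xist UMIs. The cause was not tested. The filter on Y-linked and Xist UMIs was applied to TG_PS19 alone, and the part of sex in the TG_PS19 comparisons was not tested. Calls over all genes in microglia ranged from 37 to 946 in PS19 against WT (374 as reported), 49 to 4107 in TG_PS19 against PS19 (422) and 2 to 2045 in TG_PS19 against WT (2). Without either PS19 replicate no test remains, and Cd74 lay between 3.15 and 3.76 and between -5.71 and -5.11. No paired analysis was possible because only the PS19 libraries carry replicate numbers. In microglia 3 counts correspond to 3.01 to 4.58 CPM, which limits what can be said of the lowest members.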

Other observations

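Barcodes removed as doublets also held class II UMIs: 349, 68, 55 and 73 in WT, PS19 replicate 1, PS19 replicate 2 and TG_PS19. Of these barcodes 12, 3, 3 and 1 had 5 or more UMIs of the 5 genes. For Cd74 alone, 178 of the 477 deposited WT UMIs (37.3%) lay in such barcodes, against 36 of 369 (9.76%), 34 of 350 (9.71%) and 27 of 204 (13.2%) in the others.

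In the fibroblast cluster led by Slc47a1, H2-Aa gave 9, 1, 1 and 2 UMIs beside 27, 14, 9 and 12 of Cd74, and single nuclei held at most 7 UMIs of the 5 genes.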
